A study of Homo sapiens with 18 samples.

Results

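The 10 genes described here encode Toll-like receptors and the proteins that carry their signal: the receptors TLR1, TLR3, TLR4 and TLR6, the adaptors MYD88, TICAM1 (TRIF) and TIRAP (MAL), the kinases IRAK1 and IRAK4 and the E3 ubiquitin ligase TRAF6. They were chosen by name, as members of this pathway, from a table of 56269 genes, and all 10 were in it. Of these, 7 had a mean of at least 10 normalized counts (reads over a size factor) over the 18 libraries and entered the tests with 13686 genes in all, whereas TLR1, TLR3 and TLR4 lay below this level.

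Toll-like receptors recognise microbial molecules and products of damaged tissue, and fragments of hyaluronan (HA) have been discussed among the latter as ligands of TLR2 and TLR4. MYD88 links most of these receptors, and the interleukin-1 receptors, to IRAK4, IRAK1 and TRAF6 and from there to NF-kB. TICAM1 serves TLR3 and TLR4 and leads to interferon regulatory factors as well, TIRAP brings MYD88 to receptors at the cell surface, and fibroblasts use the same proteins when they answer to cytokines and infection.

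RNA came from IMR90 cells, a line of primary human lung fibroblasts, with 3 replicates in each of 6 groups. The pre-incubation lasted 6 h, in PBS or in HA at 20 μg/ml from skin fibroblasts of the naked mole-rat. This HA was either cNSF-HA, the control preparation treated with inactivated hyaluronidase, or fNSF-HA, which active hyaluronidase had partly fragmented. According to the paper, most of fNSF-HA kept a high molecular mass. The paper cites inflammatory responses for low-molecular-mass HA and not for HA of high molecular mass. In 3 groups the medium was then replaced and the cells received 200 μM tert-butyl hydroperoxide (tBHP), an oxidant, for 1 h and were collected 6 h after its start. The groups without tBHP were collected at the end of the pre-incubation, so that the groups with tBHP differed from them in the oxidant and in time from the start of the experiment (12 h against 6 h), and these cannot be told apart here.

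Libraries held 20261103 to 26287660 reads on genes, and intervals or limits on reads cover counting error only. All 12 fibroblast markers looked at were detected at a mean of at least 10 normalized counts, against 1 of 11 myeloid markers, 0 of 6 lymphoid, 0 of 7 epithelial and 2 of 5 endothelial ones (TEK with a mean of 1131 and VWF with 13.0, while CDH5 had no read). The summed myeloid markers lay between 30.4 and 49.8 normalized counts without tBHP and between 52.1 and 92.5 with it, and the summed endothelial markers between 1286 and 1459 without and between 713 and 1101 with tBHP. Most of the myeloid sum was CSF1R, with a mean of 46.1, 3 of the 11 myeloid markers had no read in any library, and the part of these values in the results was not tested.

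In the 8 genes with a RefSeq window, the sequence before the RefSeq start separated the 3 receptors from the 5 proteins downstream. No window was found for TLR1 and TIRAP. RefSeq windows (GRCh38.p14) were found for 8 of the 10 genes. The 250 bases before the RefSeq start held 3 CpG dinucleotides in TLR3, 4 in TLR6 and 5 in TLR4. They held 19 in MYD88, 22 in IRAK4, 23 in TICAM1, 24 in TRAF6 and 43 in IRAK1. The windows of TLR4, MYD88 and IRAK1 overlap the genes as bounded in GENCODE 29, whose starts lie farther upstream. Those of TLR3 and IRAK4 do so by a few bases. The median over 27305 genes was 11. The GC content was 36.4% to 46.4% in the 3 receptors and 61.6% to 82.4% in the other 5, against a median of 58.0%. Sequences are shown 5′ to 3′ for 4 genes, a receptor with almost no reads (TLR3, chr4:186068906-186069155, plus strand), the receptor with the most reads (TLR6, chr4:38856818-38857067, minus strand), an adaptor that was higher after tBHP (TICAM1, chr19:4831713-4831962, minus strand) and a kinase that was lower (IRAK4, chr12:43758701-43758950, plus strand). Capitals mark the match to the NF-kB motif.
TLR3: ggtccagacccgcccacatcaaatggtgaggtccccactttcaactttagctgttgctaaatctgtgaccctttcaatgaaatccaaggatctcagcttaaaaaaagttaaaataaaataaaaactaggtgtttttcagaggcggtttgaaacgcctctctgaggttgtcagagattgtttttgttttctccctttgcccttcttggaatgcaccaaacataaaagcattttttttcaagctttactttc
TLR6: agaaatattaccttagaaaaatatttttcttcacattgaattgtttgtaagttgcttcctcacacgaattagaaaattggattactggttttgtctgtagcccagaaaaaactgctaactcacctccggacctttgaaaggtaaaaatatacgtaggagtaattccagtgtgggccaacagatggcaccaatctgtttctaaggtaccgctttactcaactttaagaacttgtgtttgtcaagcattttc
TICAM1: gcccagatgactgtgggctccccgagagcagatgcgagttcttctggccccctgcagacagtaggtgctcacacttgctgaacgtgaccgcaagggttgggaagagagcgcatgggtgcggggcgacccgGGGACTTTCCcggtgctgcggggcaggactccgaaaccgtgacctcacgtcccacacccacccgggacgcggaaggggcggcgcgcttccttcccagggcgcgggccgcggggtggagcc
IRAK4: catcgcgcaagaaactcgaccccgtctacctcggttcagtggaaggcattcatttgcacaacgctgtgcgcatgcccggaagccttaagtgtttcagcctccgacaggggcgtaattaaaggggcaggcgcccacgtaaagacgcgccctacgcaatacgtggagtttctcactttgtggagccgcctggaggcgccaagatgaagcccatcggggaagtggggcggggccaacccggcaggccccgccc

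Motifs were searched on both strands of these windows, and none of the matches overlapped. The NF-kB motif was present in TICAM1 among the 8 genes and in 5.05% of all windows. TGACNNNGC, the core of the antioxidant response element, was present in IRAK1 and in 11.0% of all windows. CCTGCG, described as a response element of the cleaved intracellular domain of CD44, a receptor of HA, was present in MYD88 and in 20.2% of all windows. In MYD88 it lies inside the gene as bounded in GENCODE 29. The AP-1 motif TGANTCA (6.60% of all windows), the cAMP response element TGACGTCA (1.77%) and the ETS motif CCGGAAGT (3.64%) matched in 0 of the 8 windows. Such matches describe the letters and do not show that a factor was bound.

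TLR1, TLR3 and TLR4 were scarce, and TLR6 lay between them and the adaptors and kinases. Per kb of exon, the order of the mean levels over the 18 libraries was IRAK1 with 1258 normalized counts per kb, MYD88 with 276, TICAM1 with 205, TRAF6 with 86.9, IRAK4 with 69.3, TIRAP with 47.0, TLR6 with 13.0, TLR1 with 1.24, TLR3 with 0.233 and TLR4 below these. Not all neighbours in this order were apart. In cells pre-incubated with PBS, TRAF6 had 81.3 ± 3.01 and IRAK4 81.6 ± 3.37 normalized counts per kb (SD, n = 3), and after tBHP in the same cells 87.9 ± 2.19 and 51.0 ± 6.58. MYD88 and TICAM1 were well apart without tBHP, with 295 ± 11.6 and 165 ± 14.4 per kb in PBS cells, whereas after cNSF-HA and tBHP they had 248 ± 19.3 and 256 ± 14.4.

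**Figure D1:**
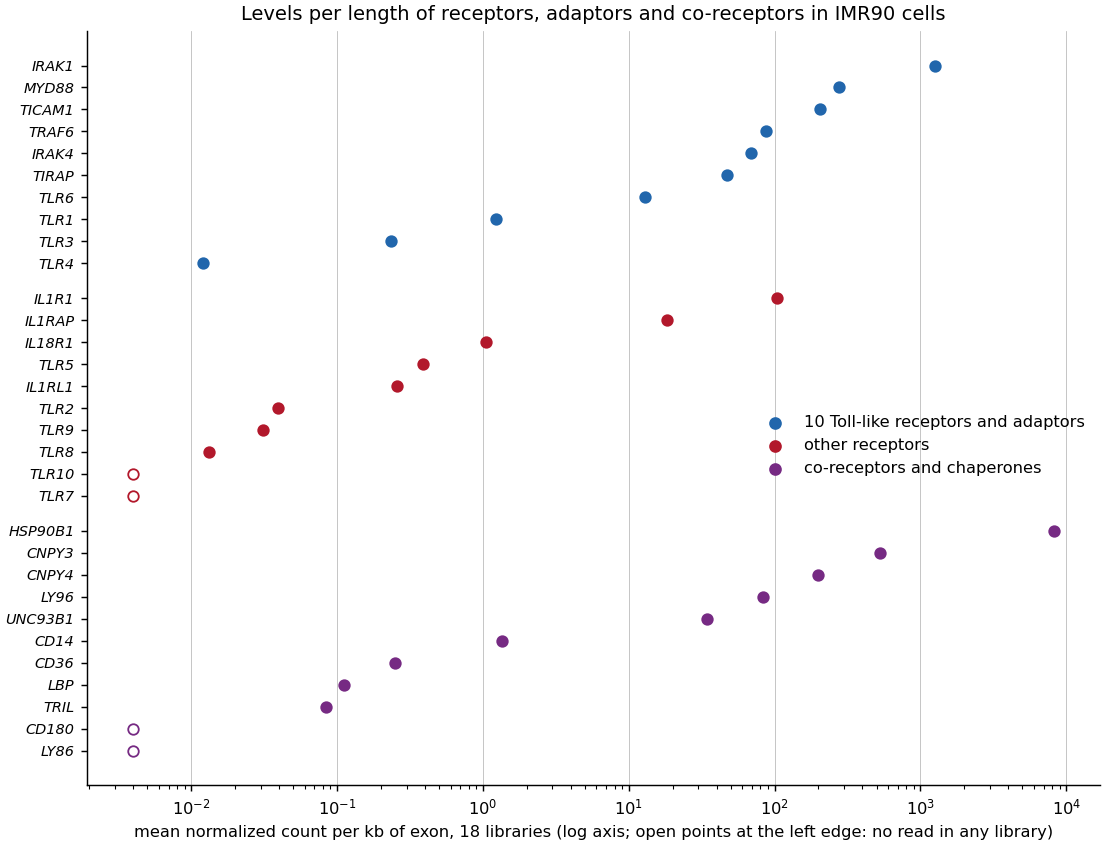
Mean normalized count per kb of exon over 18 libraries (log axis) for the 10 genes, other receptors of the family and co-receptors, 1 point per gene. IRAK1 lies at 1258 per kb, TLR6 at 13.0 and TLR1 at 1.24, and open points at the left edge mark genes with no read in any library.

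TLR4, the receptor for bacterial lipopolysaccharide (chromosome 9, 117704175 to 117724730, plus strand, GENCODE 29), was counted in 3 reads in all. Replicate 1 of the cNSF-HA cells held 2 of them and the second fNSF-HA replicate held 1, both without tBHP. The other 16 libraries held 0 reads, which allows up to 3 reads in a library of 20261103 to 26287660. No difference between groups was detectable at this depth.

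TLR3, the endosomal receptor for double-stranded RNA (chromosome 4, 186069152 to 186088069, plus strand), was counted in 27 reads, and 5 libraries had none. Without tBHP, replicates 1 to 3 had 0, 0 and 0.86 normalized counts after PBS, 0.95, 0.98 and 3.10 after cNSF-HA, and 3.92, 0 and 1.86 after fNSF-HA. With tBHP the values were 3.40, 1.09 and 4.38 after PBS, 1.05, 1.01 and 0 after cNSF-HA, and 0, 2.13 and 3.42 after fNSF-HA. The 3 PBS libraries with tBHP lay above the 3 without it, on 8 reads against 1 read, and the gene was too low to test.

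TLR1, which pairs with TLR2 to bind bacterial lipopeptides (chromosome 4, 38790677 to 38856817, minus strand), was counted in 99 reads. Its values lay between 0.93 and 7.82 normalized counts in the 9 libraries without tBHP and between 3.42 and 21.9 in the 9 with it. The highest value was replicate 3 of the PBS cells with tBHP, whose other replicates had 4.54 and 8.71, within or close to the range of the other libraries. TLR1 and TLR6 lie on the same strand and share 57 exon bases, and 119 of the 4807 different stretches of 100 bases in TLR1 transcripts (2.48%) also occur in TLR6, so that single reads could be placed with either gene.

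TLR6, the other partner of TLR2 (chromosome 4, 38823715 to 38856817, minus strand), was the only receptor of the 4 with a mean above 10. Replicates 1 to 3 had 44.4, 78.4 and 55.3 normalized counts after PBS, 61.1, 46.9 and 77.5 after cNSF-HA, and 58.8, 72.9 and 74.5 after fNSF-HA. With tBHP they had 68.1, 95.8 and 110.5 after PBS, 104, 100.4 and 61.0 after cNSF-HA and 93.0, 117 and 94.5 after fNSF-HA. Only the fNSF-HA libraries with tBHP lay wholly above their counterparts without it, and the spread between replicates was wide, with a pooled SD within groups of 0.33 without and 0.338 with tBHP on the log2 scale, against medians of 0.0761 and 0.206 over all genes tested. TLR2, the partner of TLR1 and TLR6, was counted in 4 reads in the 18 libraries.

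**Figure D2:**
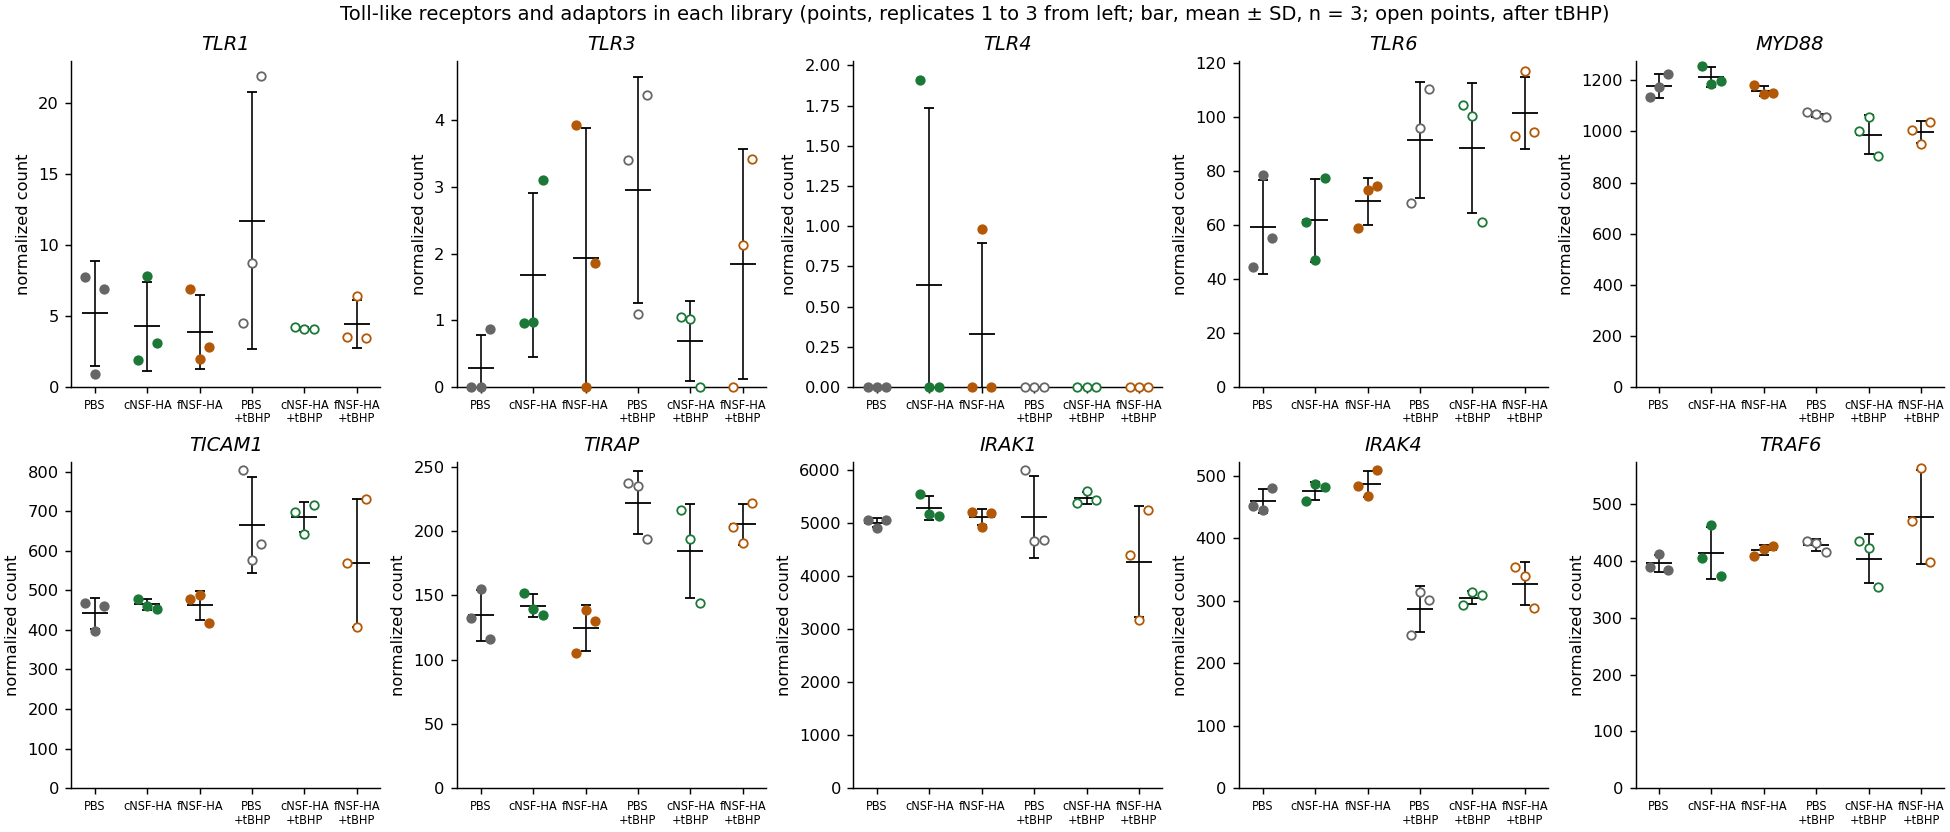
Normalized counts (vertical axes, each from 0) of the 10 genes in the 6 groups, with 1 point per library, a bar for the mean and whiskers for ± SD (n = 3). The IRAK4 libraries with tBHP (open points, 245 to 354) lie below all those without it (445 to 509), and TLR4 is at 0 in 16 of 18 libraries.

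After tBHP, IRAK4 was lower in all 3 pre-incubations and MYD88 in 2 of 3, TIRAP and TICAM1 were higher in 2 of 3 each and TLR6 in 1, whereas IRAK1 and TRAF6 passed the test in none. In limma's test over all genes, 4 of the 7 genes tested differed after PBS pre-incubation (3 higher and 1 lower), against 51.1% of all genes tested (24.2% higher and 26.9% lower). After cNSF-HA 3 differed (1 higher and 2 lower), against 50.8% of all genes (24.0% higher and 26.8% lower), and after fNSF-HA again 3 (1 higher and 2 lower), against 41.9% (19.2% and 22.7%). The groups with and without tBHP did not overlap in 5 of the 7 genes after PBS, against 63.8% of all genes, in 3 after cNSF-HA, against 63.7%, and in 4 after fNSF-HA, against 48.7%. These shares lie near those of all genes. In bulk RNA, fewer cells of a kind and less RNA per cell cannot be told apart.

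IRAK4, the kinase that opens the MYD88-dependent chain by phosphorylating IRAK1 (chromosome 12, 43758944 to 43789543, plus strand), was the gene with the smallest p-values. Without tBHP its replicates had 452, 445 and 481 normalized counts after PBS, 459, 487 and 482 after cNSF-HA, and 484, 467 and 509 after fNSF-HA. With tBHP it had 245, 315 and 302 after PBS, 293, 314 and 309 after cNSF-HA and 354, 339 and 288 after fNSF-HA. The 9 libraries with tBHP all lay below the 9 without it, and how many of all genes do the same was not counted. The log2 difference was -0.68 (SE 0.099, adjusted p = 1.79e-05) after PBS, -0.64 (adjusted p = 3.99e-05) after cNSF-HA and -0.58 (adjusted p = 0.00014) after fNSF-HA. As 1 contrast over the 3 pre-incubations, chosen after the data had been seen, it was -0.63 (95% interval -0.75 to -0.51, adjusted p = 1.83e-08), a call shared by 67.8% of all genes, and a level 0.645 times that without tBHP.

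TIRAP (chromosome 11, 126283065 to 126298845, plus strand) had 105 to 155 normalized counts in the 9 libraries without tBHP and 144 to 237 in the 9 with it. With tBHP its replicates had 237, 235 and 194 after PBS, 216, 194 and 144 after cNSF-HA and 203, 190 and 222 after fNSF-HA. Replicate 3 of the cNSF-HA cells was the only one of these within the range without tBHP. TIRAP rose by a log2 difference of 0.72 (SE 0.15, adjusted p = 0.000726) after PBS, a 1.65-fold change, and by 0.72 (adjusted p = 0.000963) after fNSF-HA. After cNSF-HA the difference was 0.36 (95% interval 0.04 to 0.68, adjusted p = 0.0579), and 0.53 (adjusted p = 0.00814) without replicate 3 of the cNSF-HA cells with tBHP but 0.24 without their replicate 1. Antisense genes cover 22.5% of its exon bases in GENCODE 29, and the library kit does not mark strand, so that their reads could be counted with it.

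TICAM1, the adaptor of TLR3 and TLR4 outside the MYD88 chain (chromosome 19, 4815932 to 4831704, minus strand), had 398 to 489 normalized counts in the 9 libraries without tBHP. With tBHP it had 803, 576 and 616 after PBS, 699, 642 and 716 after cNSF-HA and 570, 406 and 731 after fNSF-HA. The first 2 of these groups lay above all libraries without tBHP, and replicate 2 of the fNSF-HA cells lay among them. TICAM1 rose by 0.58 (SE 0.16, adjusted p = 0.0054) after PBS and by 0.56 (adjusted p = 0.00675) after cNSF-HA on the log2 scale. After fNSF-HA the difference was 0.26 (95% interval -0.07 to 0.60, adjusted p = 0.194), and 0.49 (adjusted p = 0.00332) without replicate 2 of the fNSF-HA cells with tBHP but 0.06 without their replicate 3.

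MYD88 (chromosome 3, 38138478 to 38143022, plus strand) had 1134, 1176 and 1226 normalized counts after PBS, 1258, 1184 and 1197 after cNSF-HA, and 1181, 1147 and 1150 after fNSF-HA, all without tBHP. With tBHP it had 1076, 1069 and 1056 after PBS, 1002, 1056 and 905 after cNSF-HA and 1005, 952 and 1035 after fNSF-HA. All 9 libraries with tBHP lay below the 9 without it, although the change was small. The share of all genes separated in this way was not counted. MYD88 fell by 0.30 on the log2 scale (SE 0.068, adjusted p = 0.00139) after cNSF-HA and fell by 0.22 (adjusted p = 0.0151) after fNSF-HA. After PBS the difference was -0.14 (95% interval -0.29 to -0.00027, adjusted p = 0.0875). Over the 3 pre-incubations as 1 contrast it was -0.22 (adjusted p = 7.46e-05), and the smallest SD within groups of the 7 genes, 0.0444 without and 0.0749 with tBHP on the log2 scale, was that of MYD88.

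TLR6 rose by a log2 difference of 0.63 (SE 0.25, adjusted p = 0.042) after PBS. After cNSF-HA the difference was 0.50 (adjusted p = 0.0989) and after fNSF-HA 0.55 (adjusted p = 0.08). The former was 0.75 (adjusted p = 0.0225) without replicate 3 of the cNSF-HA cells with tBHP and 0.32 without replicate 2 of those without it. The latter passed the test in edgeR (0.62, adjusted p = 0.0423), with only the compared groups (adjusted p = 0.0362) and with array weights (0.43, adjusted p = 0.013). The call after PBS was lost without any 1 of 4 of its 6 libraries (PBS replicates 1 and 3 and PBS replicates 2 and 3 with tBHP), with differences of 0.44, 0.59, 0.58 and 0.48 and adjusted p-values from 0.0991 to 0.191. As 1 contrast over the 3 pre-incubations the difference was 0.56 (95% interval 0.26 to 0.86, adjusted p = 0.00199), and it passed the test without any 1 of the 18 libraries.

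IRAK1, the substrate of IRAK4 and the most abundant of the 10 (chromosome X, 154010500 to 154019980, minus strand), had 4896 to 5537 normalized counts without tBHP. With tBHP it had 5998, 4648 and 4675 after PBS, 5379, 5597 and 5431 after cNSF-HA and 4384, 3159 and 5244 after fNSF-HA, so that libraries with tBHP were found on both sides of the others. The response was 0.02 (95% interval -0.25 to 0.29) after PBS, 0.05 (-0.21 to 0.32) after cNSF-HA and -0.29 (-0.56 to -0.02, adjusted p = 0.0772) after fNSF-HA. The last of these was -0.09 without replicate 2 of the fNSF-HA cells with tBHP and -0.45 (adjusted p = 0.00305) without their replicate 3. Its sign changed under 4 of 13 other settings after PBS and under 2 of 13 after cNSF-HA.

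TRAF6, the ligase that builds the ubiquitin chains on which TAK1 and the IKK complex are activated (chromosome 11, 36487027 to 36510272, minus strand), had 374 to 464 normalized counts without tBHP and 355 to 564 with it. Its response was 0.11 (95% interval -0.13 to 0.35) after PBS, -0.04 (-0.27 to 0.20) after cNSF-HA and 0.17 (-0.06 to 0.41) after fNSF-HA. The last of these was 0.30 (adjusted p = 0.0362) without replicate 3 of the fNSF-HA cells with tBHP and 0.048 without their replicate 2. Its sign after cNSF-HA changed under 5 of 13 other settings. The highest of the 18 values was replicate 2 of the fNSF-HA cells with tBHP and the lowest replicate 3 of the cNSF-HA cells with tBHP.

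**Figure D3:**
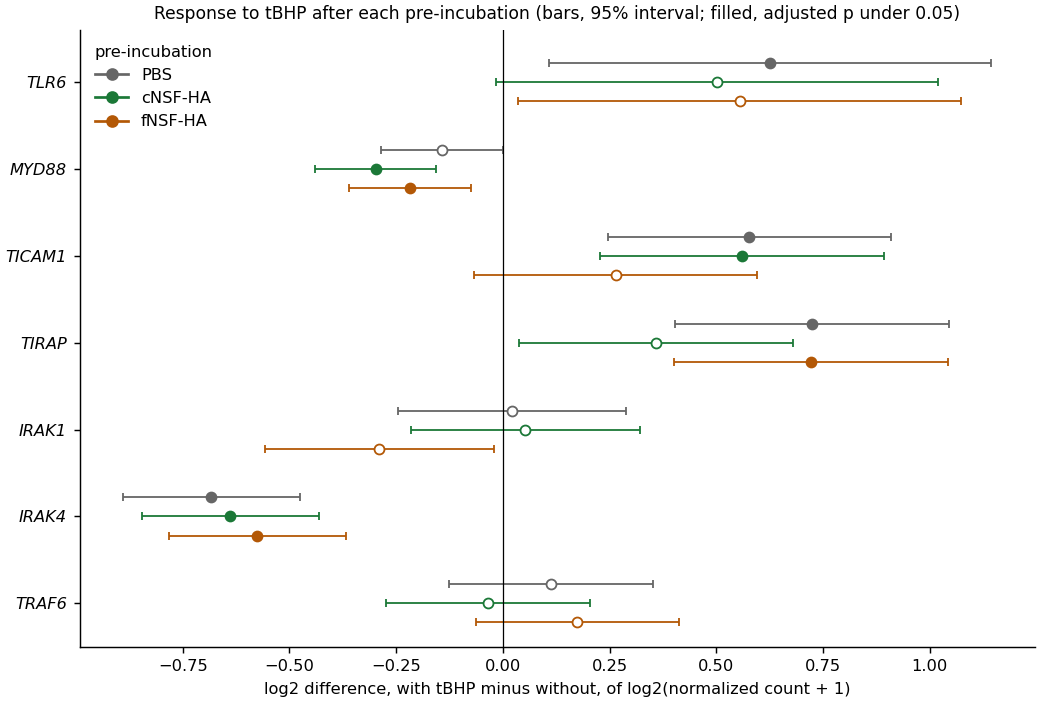
Log2 difference between cells with and without tBHP (horizontal axis, bars for the 95% interval) for the 7 genes tested after PBS, cNSF-HA and fNSF-HA pre-incubation, filled where the adjusted p was under 0.05. IRAK4 is near -0.63 in all 3, and TIRAP and TLR6 lie to the right of 0.

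The ratios between the adaptors differed between the libraries with and without tBHP. The ratio of TICAM1 to MYD88 normalized counts was 0.338 to 0.426 in the 9 libraries without tBHP (median 0.381) and 0.427 to 0.791 with it (median 0.608). The ratio of TIRAP to MYD88 was 0.0889 to 0.132 without (median 0.117) and 0.160 to 0.220 with tBHP (median 0.202). For the kinases, IRAK4 over IRAK1 was 0.0829 to 0.0982 without tBHP (median 0.0939) and 0.0409 to 0.107 with it (median 0.0569), and here the ranges overlapped. These ratios are free of the scaling of a library but not of how it represents transcripts of different GC content. The longest transcripts have a GC content of 63.0% in TICAM1 and IRAK1, 53.8% in MYD88, 54.0% in TIRAP and 42.1% in IRAK4. Replicate 2 of the fNSF-HA cells with tBHP gave the lowest TICAM1 to MYD88 ratio with tBHP and the highest IRAK4 to IRAK1 ratio. The ratios are given without a test, since they were chosen after the values of these genes had been seen.

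The 3 responses were also compared with each other. For the difference between responses, 0 of the 7 genes passed limma's test in any of the 3 comparisons, 0 at an unadjusted p under 0.05, and 0 by edgeR and by DESeq2, against 0% of all genes in limma's test in each comparison. The share of all genes with an unadjusted p under 0.05 was 4.06% for cNSF-HA against PBS, 6.88% for fNSF-HA against PBS and 3.89% for cNSF-HA against fNSF-HA. The response of TICAM1 after fNSF-HA differed from that after PBS by -0.31 (95% interval -0.78 to 0.16, adjusted p = 0.689). For IRAK4 the same difference was 0.11 (-0.19 to 0.40) and for TIRAP after cNSF-HA against PBS -0.36 (-0.82 to 0.09). A call after one pre-incubation and not after another was therefore not shown to be a difference between them.

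Between the pre-incubations themselves, none of the 7 genes tested passed the threshold in limma's test (0 in each of 6 comparisons), and edgeR and DESeq2 called 0 as well. In limma's test, the share of all genes past the threshold was 0% in the 3 comparisons without tBHP. With tBHP it was 0% for cNSF-HA against PBS and for cNSF-HA against fNSF-HA, and 0.139% for fNSF-HA against PBS. DESeq2 called 442 of all genes for fNSF-HA against PBS and 923 for cNSF-HA against fNSF-HA with tBHP, where edgeR called 36 and 0. Without tBHP, 0 of the 7 had an unadjusted p under 0.05, against 0.921% of all genes for cNSF-HA against PBS, 0.796% for fNSF-HA against PBS and 1.51% for cNSF-HA against fNSF-HA. MYD88 differed between cNSF-HA and fNSF-HA by 0.06 on the log2 scale (95% interval -0.08 to 0.21), IRAK4 by -0.03 (-0.24 to 0.18), TICAM1 by 0.01 (-0.32 to 0.34) and TIRAP by 0.19 (-0.13 to 0.51). TLR6 had the widest interval, from -0.69 to 0.35.

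With tBHP, an unadjusted p under 0.05 was reached by 0 of the 7 genes for cNSF-HA against PBS (8.64% of all genes) and by 1, IRAK1, for fNSF-HA against PBS (22.7%) and for cNSF-HA against fNSF-HA (32.2%). It had 5469 ± 114 normalized counts (SD, n = 3) after cNSF-HA, 5107 ± 772 after PBS and 4262 ± 1047 after fNSF-HA. The log2 difference between cNSF-HA and fNSF-HA was 0.39 (95% interval 0.12 to 0.66, adjusted p = 0.0981 from limma), and the 3 libraries of one group did not overlap those of the other, as in 13.4% of all genes. It was 0.19 (adjusted p = 0.572) without replicate 2 of the fNSF-HA cells and 0.56 (adjusted p = 0.00186) without their replicate 3. Between fNSF-HA and PBS the IRAK1 difference was -0.28 (95% interval -0.55 to -0.01, adjusted p = 0.204). It was -0.08 without replicate 2 and -0.45 (adjusted p = 0.0085) without replicate 3 of the fNSF-HA cells and -0.16 without replicate 1 of the PBS cells. Its sign was kept in only 11 of 13 other settings, with a highest value of 0.05. TICAM1 differed between cNSF-HA and fNSF-HA by 0.31 (95% interval -0.02 to 0.64), TRAF6 by -0.23 (-0.47 to 0.01), IRAK4 by -0.10 (-0.30 to 0.11) and MYD88 by -0.02 (-0.16 to 0.13), all with tBHP. Without replicate 3 of the fNSF-HA cells the TICAM1 difference was 0.51 (adjusted p = 0.00909) and that of TRAF6 -0.35 (adjusted p = 0.0164), and without their replicate 2 they were 0.085 and -0.11. With the GC and length trend removed the TICAM1 difference turned to -0.09.

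**Figure D4:**
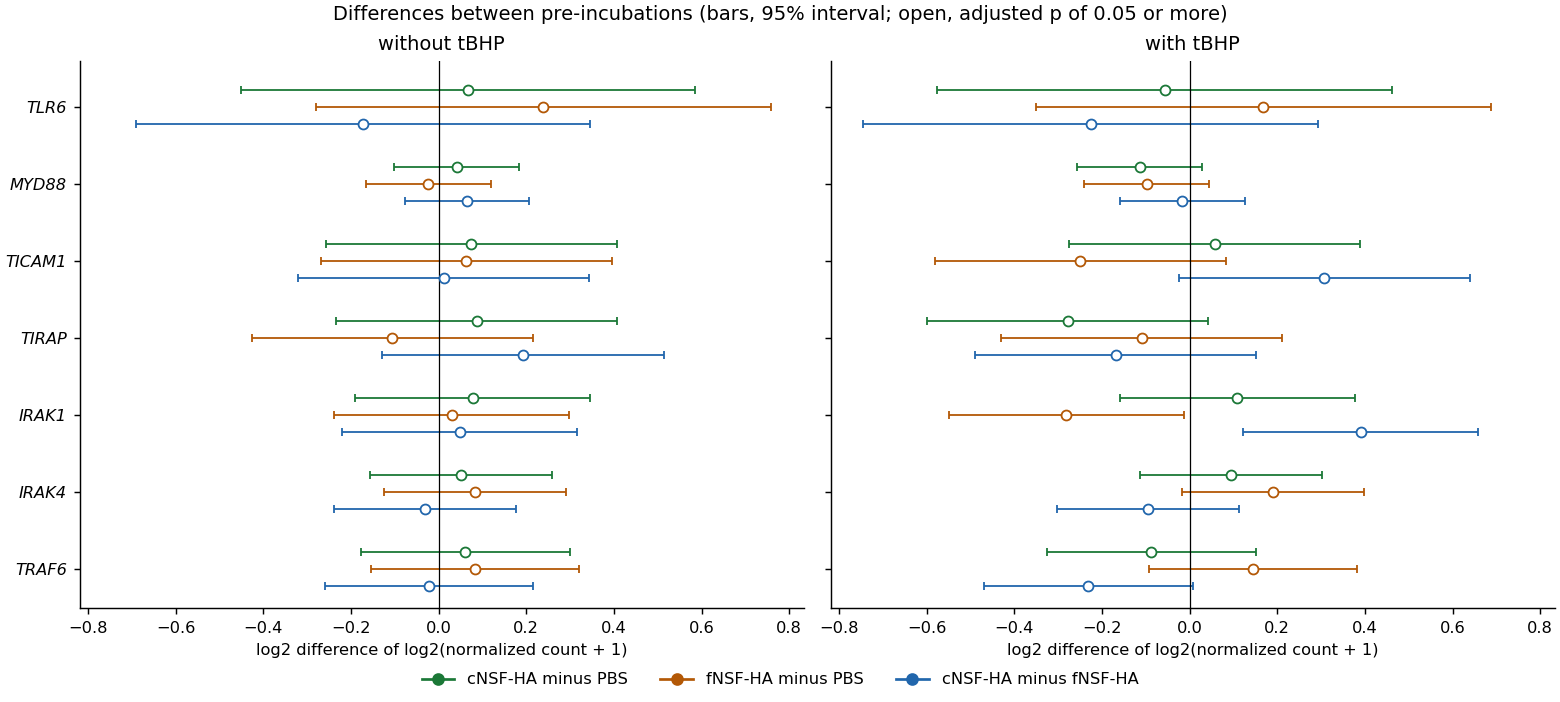
Log2 differences between pre-incubations without tBHP (left) and with it (right) for the 7 genes tested, with 95% intervals as bars. All points are open (adjusted p of 0.05 or more), and IRAK1 between cNSF-HA and fNSF-HA with tBHP, at 0.39, lies farthest from 0.

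The libraries with tBHP differed in how they represented transcripts of high GC content, and these values moved with the levels of TICAM1 and IRAK1. For the fifth of genes with the highest transcript GC content (58.2% and above), each library was set against the average of all 9 with tBHP. The median log2 deviation was -0.13, -0.63 and 0.14 for fNSF-HA replicates 1 to 3, 0.091, 0.10 and 0.26 for cNSF-HA and 0.26, -0.029 and 0.0087 for PBS. The 9 libraries without tBHP lay between -0.051 and 0.065. The longest transcripts of TICAM1 and IRAK1 have a GC content of 63.0% each, against 42.1% for IRAK4 and 41.9% for TRAF6. Replicate 2 of the fNSF-HA cells with tBHP had the lowest TICAM1 and IRAK1 values and the highest TRAF6 value of the 9 libraries.

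Once a trend with transcript GC content and length had been removed from each library, the IRAK1 difference between cNSF-HA and fNSF-HA with tBHP was 0.02 (adjusted p = 0.844). Under the same setting all 7 genes passed the test in the response after PBS and after fNSF-HA and 6 after cNSF-HA, with 4 higher after PBS and after fNSF-HA and 3 after cNSF-HA. Of all 12503 genes in that fit, 58.2% passed it after PBS, 56.8% after cNSF-HA and 57.0% after fNSF-HA. IRAK1 was then lower after tBHP, by -0.30 (adjusted p = 1.47e-06) after PBS, and TRAF6 higher, by 0.38 (adjusted p = 0.000274). This setting also removes any part of the tBHP response, or of a difference between pre-incubations, that itself follows GC content. Whether the IRAK1 difference between cNSF-HA and fNSF-HA is of this kind was not tested. The directions of IRAK4, MYD88, TICAM1, TIRAP and TLR6 were the same in all 13 other settings after each pre-incubation, but with the trend removed the sizes moved. TICAM1 rose by only 0.26 after PBS and 0.22 after cNSF-HA, IRAK4 had -0.42, -0.37 and -0.43 after PBS, cNSF-HA and fNSF-HA and MYD88 -0.32, -0.47 and -0.32. TIRAP after cNSF-HA was at 0.14 on the log2 scale and TLR6 after cNSF-HA at 0.78.

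**Figure D5:**
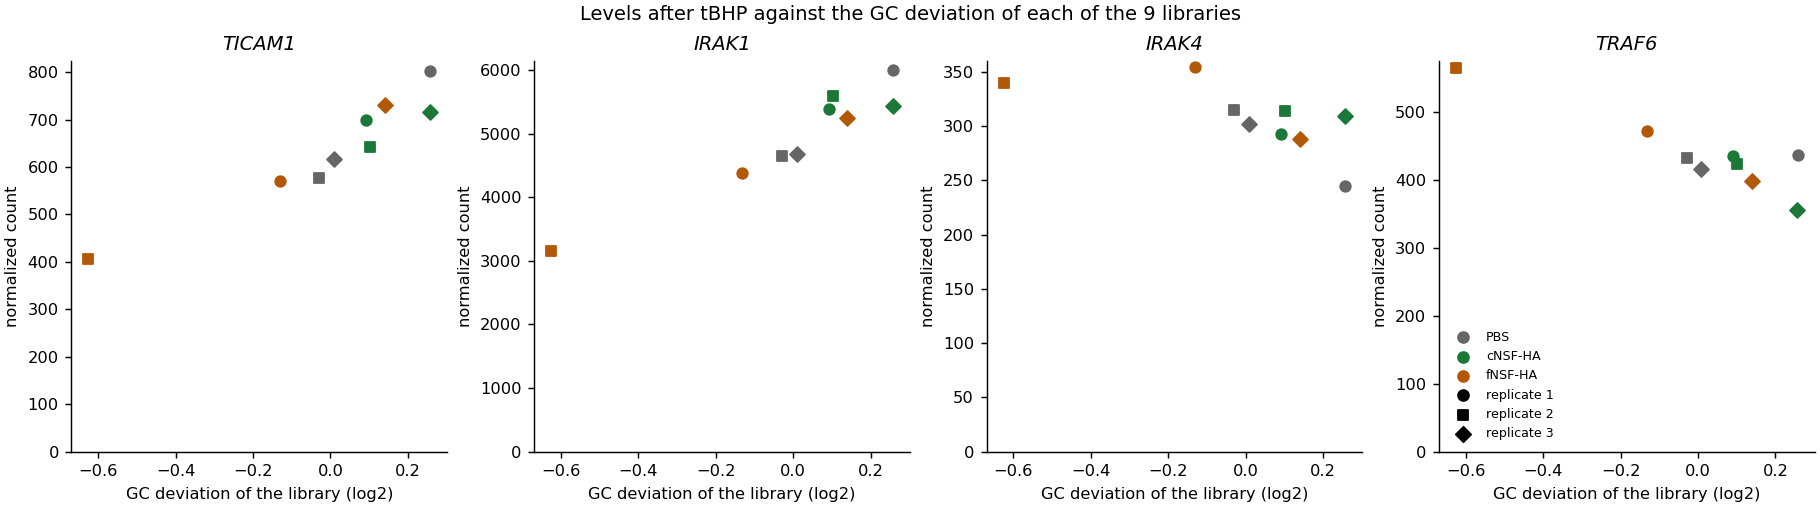
Normalized counts of TICAM1, IRAK1, IRAK4 and TRAF6 (vertical axes, from 0) in the 9 libraries with tBHP against the median log2 deviation of the fifth of genes with the highest GC content in the same library. Replicate 2 of the fNSF-HA cells, at -0.63, has the lowest TICAM1 (406) and IRAK1 (3159) and the highest TRAF6 (564).

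Around these genes, the other Toll-like receptors of the list had few reads. TLR7 and TLR10 had no read in any library, TLR8 had 1 read, TLR9 2 and TLR5, the receptor for flagellin, 56. The interleukin-1 receptor chains, which use the same adaptor MYD88, were expressed, with IL1R1 at 741 and IL1RAP at 211 normalized counts (105 and 18.2 per kb). IL1R1 fell by 0.27 on the log2 scale after PBS (adjusted p = 0.0273 from limma), and 1 of the 2 tested genes of the 10 other receptors passed the test there, 2 of 2 after cNSF-HA and 1 of 2 after fNSF-HA, all of them lower, against 26.9%, 26.8% and 22.7% of all genes lower.

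Of 11 co-receptors and chaperones, 5 were tested. LY96 (MD-2), which TLR4 needs to bind lipopolysaccharide, had a mean of 50.3 normalized counts, while CD14, which hands the lipopolysaccharide over, had 2.55. After PBS, 2 of the 5 rose with tBHP, CNPY3 by 0.51 and CNPY4 by 0.49 on the log2 scale, both of them chaperones of Toll-like receptors in the endoplasmic reticulum. After cNSF-HA 3 rose and none fell, and after fNSF-HA 3 rose and 1 fell. Of all genes, 24.2%, 24.0% and 19.2% rose after PBS, cNSF-HA and fNSF-HA. The median of the 5 log2 responses was 0.10 after PBS, 0.28 after cNSF-HA and 0.39 after fNSF-HA, against 0.0043, -0.00053 and -0.034 for all genes tested.

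Of 25 further adaptors, kinases and ligases, 23 were tested and 6 rose and 3 fell after PBS. The largest rises were those of IRF7, an interferon regulatory factor, by 1.37, of IKBKG (NEMO), the regulatory subunit of the IKK complex, by 0.45 and of PELI3, a ligase of the Pellino family that acts on IRAK proteins, by 0.42. The falls were those of UBE2N (UBC13), the ubiquitin-conjugating enzyme that works with TRAF6, by a log2 difference of -0.73, of CHUK (IKK-alpha) with -0.60 and of TAB2, which ties TRAF6 to the kinase TAK1, with -0.23. After cNSF-HA again 6 rose and 3 fell, and after fNSF-HA 5 rose and 4 fell, while 51.1%, 50.8% and 41.9% of all genes passed the test in the 3 responses. The medians of the list were 0.10, 0.14 and 0.047 on the log2 scale, against 0.0043, -0.00053 and -0.034 for all genes tested.

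All 19 genes listed as inhibitors of the pathway were tested, of which 9 rose and 4 fell after PBS, 8 rose and 4 fell after cNSF-HA and 7 rose and 4 fell after fNSF-HA. Of all genes, 24.2% rose and 26.9% fell after PBS, 24.0% and 26.8% after cNSF-HA and 19.2% and 22.7% after fNSF-HA. ATF3, a transcriptional repressor of inflammatory genes that many stresses induce, rose by 4.01, TRIM38 by 1.04 and ZC3H12A (Regnase-1), an RNase that degrades cytokine mRNA, by 0.73 on the log2 scale. IRAK3 (IRAK-M), the member of the IRAK family that restrains the others, had a log2 difference of -1.12, TNFAIP3 (A20), which removes ubiquitin chains, -1.09 and NFKBIA (IkB-alpha) -0.45. The median response of the list was 0.32 after PBS, 0.24 after cNSF-HA and 0.076 after fNSF-HA, against 0.0043, -0.00053 and -0.034 for all genes tested.

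Of 24 genes that Toll-like receptors are known to induce, 14 were tested, with 5 higher and 5 lower after PBS, 6 and 3 after cNSF-HA and 5 and 5 after fNSF-HA, against 24.2% higher and 26.9% lower, 24.0% and 26.8%, and 19.2% and 22.7% of all genes. The medians of the list were 0.16, 0.22 and 0.32 on the log2 scale, against 0.0043, -0.00053 and -0.034. The chemokine genes CXCL3 and CXCL8 and the cyclooxygenase gene PTGS2 rose by 2.73, 1.36 and 1.27 on the log2 scale after PBS. BIRC3, an inhibitor of apoptosis under control of NF-kB, had a log2 difference of -2.32, the chemokine gene CCL2 -1.01 and the adhesion molecule gene ICAM1 -0.82. TNF and IFNB1 had no read in any library. In the 6 comparisons between pre-incubations, limma and edgeR called 0 of the 63 tested genes of these 5 lists, and at an unadjusted p under 0.05 limma had between 0 and 3 of them, except 12 for fNSF-HA against PBS (22.7% of all genes) and 28 for cNSF-HA against fNSF-HA (32.2% of all genes) with tBHP. DESeq2 called 3 and 8 of the 63 in these last comparisons, where it called 442 and 923 of all genes, and 0 of the 63 in the other 4.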

How the data were processed

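Polyadenylated RNA of 18 libraries was sequenced by the authors as single-end reads of 100 nt. Per the labels' processing notes, Trimmomatic 0.32, STAR 2.5.2b, featureCounts of Subread 1.5.0-p3, DESeq2 and GRCh38.p7 were used, while the annotation release and the strand setting are not given in the sources used here. The deposited signal is a read count divided by a DESeq2 size factor, called a normalized count here. Divided by the value of 1 read, 100% of them came out whole in every library (tolerance 0.001 of a read). A p-value, a q-value and a rank per gene of the authors were also deposited and not used.

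Log2(normalized count + 1) of the 13686 genes with a mean of at least 10 was fitted with limma 3.58.1 in R 4.3.3 (trend over mean level, 1 coefficient per group, all 18 libraries, two-sided, Benjamini-Hochberg adjustment over all genes, threshold 0.05), so that fold changes of low genes are understated. The log2 scale refers to the deposited values plus a pseudocount of 1. The recovered reads were also tested with edgeR 4.0.16 (quasi-likelihood) and DESeq2 1.42.0. After tBHP, limma called 6995, 6947 and 5733 genes (after PBS, cNSF-HA and fNSF-HA), edgeR 7281, 7193 and 5919 and DESeq2 7181, 7119 and 5902. Other settings were pseudocounts of 0.1 and 5, no filter or a mean of at least 50, rescaling to a common median, quantile normalization, only the compared groups, array weights, a replicate block, removal of each library's trend over the GC content and length of GENCODE 29 transcripts (5 spline degrees of freedom), both together, and each library left out in turn. The single contrast over 3 pre-incubations was added after the data had been seen. The script was tested on simulated data with 200 genes changed by a log2 of 1, of which 100% were recovered (4.31% false). Smaller changes were not simulated.

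The members and the lists were chosen with earlier results of these data known. All members are named, and of each other list up to 3 of the largest rises and 3 of the largest falls past the threshold in the response after PBS. Values of TLR2, of receptors below the filter, of LY96 and CD14 and of TNF and IFNB1 were named outside this rule, after their values had been seen. Genes with a pattern like that of TLR3 or TLR4 were not sought, since these were counted in 27 and 3 reads. Motifs were searched in RefSeq promoter windows with Python. The study describes its replicates as biological. The labels tie them to no batch, and where they share a source the p-values measure only the spread between samples.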

Additional observations from a re-analysis of the deposited data

How the results depend on the processing

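The replicate numbers are shared between groups. The deviations of same-numbered libraries from their group means went together weakly at most, with correlations from -0.119 to 0.333. With tBHP, the correlation was 0.333 for replicate 2 of the PBS and fNSF-HA cells and 0.324 for replicate 3 of the cNSF-HA and fNSF-HA cells. The numbers were not taken as pairs. With a replicate block the counts of the 7 genes past the threshold stayed at 4, 3 and 3 in the tBHP responses after PBS, cNSF-HA and fNSF-HA. Of all genes, 52.8%, 52.4% and 43.4% passed there. The counts stayed at 0 in the 9 other comparisons, where the share of all genes was 0.446% for fNSF-HA against PBS with tBHP and 0% otherwise.

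The number of genes past the threshold moved most with 2 settings. With the GC and length trend removed, alone or with the replicate block, it was 7, 6 and 7 in the 3 tBHP responses, against 58.2%, 56.8% and 57.0% of all genes (58.8%, 57.8% and 57.5% with the block), and IRAK1 after PBS (-0.30) and after cNSF-HA (-0.25) and TRAF6 after cNSF-HA (0.25) changed sign and passed the threshold. With array weights it was 5 after PBS (62.8% of all genes) and after cNSF-HA (66.0%), 7 after fNSF-HA (71.6%), 1 for fNSF-HA against PBS with tBHP (20.4%), 3 for cNSF-HA against fNSF-HA with tBHP (38.6%) and 1 for the difference between the cNSF-HA and fNSF-HA responses (7.09%). These weights lay at 0.102 and 0.236 for replicates 2 and 3 and at 6.79 for replicate 1 of the fNSF-HA cells with tBHP, so that this group then rested on nearly 1 library. The single contrast over the pre-incubations held 5 genes (67.8% of all genes) and 6 by edgeR (9508 of all 13686 genes). It held 6 with array weights (79.5% of all genes) and 7 with the trend removed (73.8%).

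With 1 library left out, the count ranged from 3 to 4 after PBS, from 3 to 5 after cNSF-HA and from 2 to 5 after fNSF-HA, while the share of all genes lay between 43.7% and 49.2%, 43.3% and 48.0%, and 34.9% and 50.6%. The count ranged from 0 to 3 for fNSF-HA against PBS and for cNSF-HA against fNSF-HA with tBHP, and the count stayed at 0 in the other comparisons between pre-incubations or responses and at 5 in the single contrast. The count of 5 after cNSF-HA came without its replicate 3 with tBHP (45.3% of all genes). Both counts of 3 and the count of 5 after fNSF-HA came without replicate 3 of the fNSF-HA cells with tBHP, where 29.4% of all genes passed against PBS, 40.8% against cNSF-HA and 40.9% in the response, and the genes were TICAM1 (-0.45, adjusted p = 0.0237), IRAK1 and IRAK4 (0.28, adjusted p = 0.0448) against PBS, TICAM1, IRAK1 and TRAF6 against cNSF-HA, and IRAK1 and TRAF6 beside MYD88, TIRAP and IRAK4 in the response. Among 1183 recomputed values of single genes with all libraries, 6 changed sign with a value past the threshold and 49 with none past it, 3 lost and 37 gained the threshold. TLR6 after PBS did not pass the threshold with no filter on low genes (adjusted p = 0.0829). TIRAP after cNSF-HA passed it in edgeR (adjusted p = 0.024), DESeq2 (0.0375) and quantile normalization (0.0243), and MYD88 after fNSF-HA did not in edgeR (0.0791) or with only the compared groups (0.0633). Over all genes, DESeq2 called 442 for fNSF-HA against PBS and 923 for cNSF-HA against fNSF-HA with tBHP, where limma called 19 and 0 and edgeR 36 and 0. With only the compared groups limma called 980 for cNSF-HA against fNSF-HA without tBHP and 21 for fNSF-HA against PBS without tBHP. Depth limits TLR1, TLR3 and TLR4, for which no test was made.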
